A study of Mus musculus with 2 samples.

Results

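Shh, Ptch1, Smo, Gli1, Gli2, Gli3, Hhip and Sufu, the core genes of the Hedgehog pathway, were compared between the tooth and the skin of newborn mice. The rule takes the genes by their names, and they are 8 of the 24323 named genes on the array. Every non-control probe that carried one of these names was used, which gave 13 probes on 22 spots per array. Shh had 10 spots of 1 probe, and every other probe had 1 spot.

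The tooth group was total RNA from wild-type (WT) tooth at postnatal day 0 (P0), and the skin group was total RNA from WT skin at P0. The study's methods name a stage 1 day later, and the labels were followed. No mutation or treatment is named for either group, and the number of animals behind each RNA is not given in the sources used here. Each tissue was measured once, on an Agilent 1-colour mouse expression array, so each group has n = 1 and no difference below has a replicate check or a p-value.

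Hedgehog ligands are secreted, lipid-modified proteins that bind the receptor Patched. Without ligand, Patched holds the membrane protein Smoothened inactive, and the Gli proteins are restrained by Sufu or trimmed into repressors. Ligand binding releases Smoothened, which acts at the primary cilium, and the Gli proteins then activate targets that include Gli1, Ptch1 and Hhip themselves. In teeth, Shh is made by the dental epithelium and acts on both the epithelium and the mesenchyme below it. In skin, Shh is made at the tip of growing hair follicles, and the pathway is needed for hair follicle growth.

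The probes behind the differences described below read short stretches of the messenger RNA. The first set shows 30 bases of the probes whose signal was at least 2-fold higher in tooth, written 5′ to 3′ in the sense of the messenger RNA, with mm9 positions taken from the array files.
Shh (A_52_P49014, chr5:28783983-28784042, minus strand): aatttattattgtgtgaactgtactcacag
Gli3 (A_51_P171288, chr13:15821502-15821561, plus strand): tgttctcctctgacaagttacgcttgtata
Hhip (A_55_P1969276, chr8:82494280-82494339, minus strand): gcagtagccttcatctgtaggttaatagtc
Hhip (A_51_P416822, chr8:82490729-82490788, minus strand): tatagaattatgaccatgagcatgaaagac

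A second set shows members that stayed within 2-fold. It holds Gli2, which had the largest difference toward skin among the members, both Ptch1 probes, whose differences had opposite signs, and the bright Gli1 probe. Capitals mark stop codons (TAA, TAG or TGA) where the stretch holds one in each of the 3 reading frames.
Gli2 (A_52_P357829, chr1:120731255-120731314, minus strand): atTGAttcttggacttTGAggaactctTAA
Ptch1 (A_52_P598605, chr13:63610298-63610357, minus strand): tTAAtttgTAAaagaaaagatctttgcTGA
Ptch1 (A_55_P2107292, chr13:63612879-63612938, minus strand): ttcatgtcaggtgtgagaggagggactcaa
Gli1 (A_55_P2183587, chr10:126766967-126767026, minus strand): ggggctgtatttagtctatgtatgttccag
Over their full 60 bases, 4 of the 13 probes had a stop codon in all 3 sense frames: the Shh probe, the Gli2 probe, Ptch1 A_52_P598605 and Hhip A_51_P416822. These 4 probes therefore cannot lie wholly inside a coding sequence. No annotation of build mm9 was used here, so the exon or untranslated region under each of the 13 probes was not analysed. The GC content of the 13 probes ran from 21.7% to 53.3%.

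Values below are processed signals in intensity units, or scaled log2 values, which are the log2 processed signal minus the 75th percentile of that array. That percentile was a signal of 428 for tooth and 276 for skin. A difference is skin minus tooth on the scaled log2 scale, so a negative value means a higher scaled signal in tooth. The ± beside a difference is the spot error given by the extraction software for both arrays, combined, and it covers neither the animals nor the dissection. A gene or probe that stood at a value has that scaled level, and a value given with ± is a difference unless it is named as a signal. Called means at least 2-fold apart. A level of one probe was never set against a level of another, since probes differ in brightness. The summed scaled signal of a marker list adds levels over its genes, so the brightest probes weigh most in it.

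Both RNAs carried the markers of their labelled tissue. All 5 ameloblast markers were at least 2-fold higher in tooth, and 4 of them (Amelx, Ambn, Enam and Mmp20) were not well above background in skin. All 6 dental mesenchyme markers were measured in tooth, and 5 of them were at least 2-fold higher there. Of these 5, 4 (Pax9, Lhx8, Barx1 and Dspp) were not well above background in skin. Lhx6 was within 2-fold on its brightest probe, with a difference of 0.09 ± 0.20, and its probes disagreed. All 4 epidermis markers were at least 2-fold higher in skin, with a summed scaled signal of 5.97 in tooth and 3756 in skin. The hair follicle list, which marks a structure that makes Shh in skin, summed to 39.5 in tooth and 662 in skin, and 4 of its 5 genes were at least 2-fold higher in skin. Msx2 went the other way, with a difference of -2.40 ± 0.20, and made up most of the tooth sum. The bone list had 3 of 4 genes at least 2-fold higher in tooth, with a summed scaled signal of 106 in tooth and 0.743 in skin. The 4 skeletal muscle markers and the 3 adipocyte markers were all at least 2-fold higher in skin. The 5 general epithelial markers had a summed scaled signal of 551 in tooth and 1061 in skin, and their median difference was 0.66. The part of these other cell types in the Hedgehog values was not tested.

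Of the 8 members, 3 were at least 2-fold higher in tooth (Shh, Gli3 and Hhip), 0 passed that fold toward skin, and 5 were within 2-fold (Ptch1, Smo, Gli1, Gli2 and Sufu). The comparison held 17409 named genes, those with a signal well above background in either tissue or both. Of them, 15.5% were called as higher in tooth and 14.2% as higher in skin. A higher scaled signal in tooth, of whatever size, was found for 52.4% of these genes. All 8 members passed that filter. The median difference of the members was -0.34, beside -0.04 over all 17409 genes, whose middle 50% ran from -0.58 to 0.47. Of the 13 probes, 8 had a higher scaled signal in tooth and 5 in skin, and 4 probes were at least 2-fold higher in tooth. These are RNA levels of whole tissue, in which fewer cells of a type and less RNA per cell cannot be told apart.

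**Figure D1:**
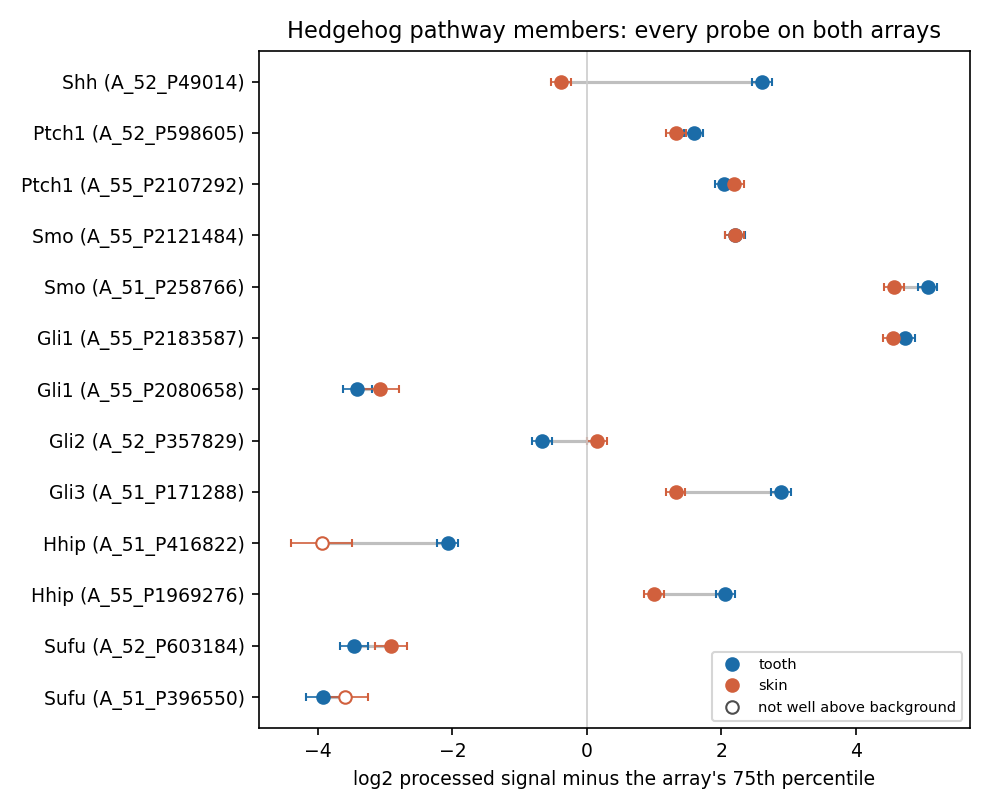
Scaled log2 signal of each of the 13 probes of the 8 members in tooth (blue) and skin (orange), with bars for the spot error of the extraction software and open points where the probe was not well above background. The widest gaps toward tooth are those of the Shh probe (-2.99), the dim Hhip probe and the Gli3 probe (-1.57), and the widest toward skin is that of Gli2 (0.82).

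Shh, the secreted ligand made in both organs, had the largest difference among the members measured on both arrays. Its probe gave processed signals of 2477 to 2853 over the 10 tooth spots, with a median of 2593 and a mean of 2615 ± 111 (SD over spots). Over the 9 skin spots used, it gave 198 to 234, with a median of 209 and a mean of 212 ± 11.9. The lowest tooth spot was 10.6 times the highest skin spot before scaling, so the spots of the 2 arrays did not overlap. The share of other repeated probes whose spots also stayed apart was not worked out.

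The software called the remaining skin spot of the Shh probe an outlier. It was left out, and its signal of 229 lay within the range of the other skin spots. After scaling, Shh stood at 2.61 (SD 0.06 over 10 spots) in tooth and at -0.38 (SD 0.08 over 9 spots) in skin. The difference was -2.99 ± 0.21, which is 7.96-fold higher in tooth. Of the 17409 genes, 480 (2.76%) had a difference as low as that of Shh or lower.

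The spots of the Shh probe lie at the same positions on both arrays, so they could be paired by position. At all 9 positions with a usable spot on both arrays the tooth signal was higher, by 7.20- to 8.41-fold after scaling. The paired differences had a median of -2.99 and an SD of 0.07. Spots of 1 probe on 1 array are technical repeats of the same RNA, so both the count of positions and this scatter leave out the spread between animals. Probes with at least 8 spots had a typical SD of 0.08 in tooth and 0.09 in skin (median over probes), so the Shh spots scattered about as much as those of other repeated probes.

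**Figure D2:**
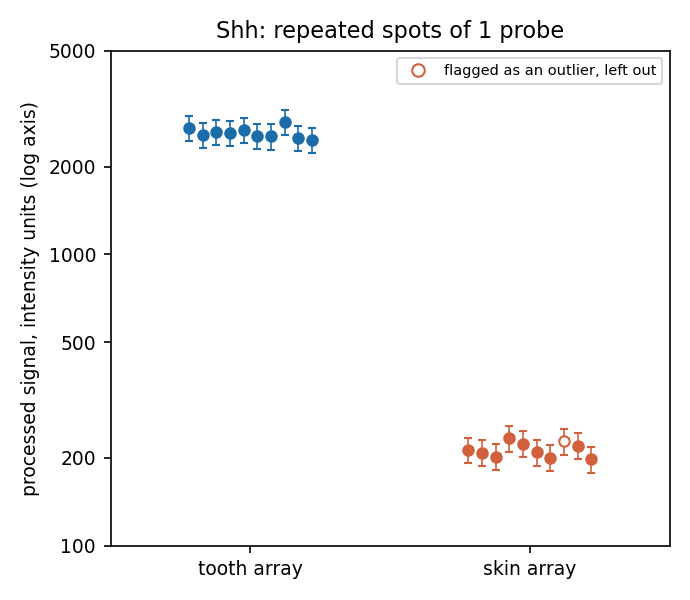
Processed signal of every spot of the Shh probe in tooth (blue) and skin (orange), on a log axis in intensity units, with bars for the spot error of the extraction software and an open point for the skin spot called an outlier. All 10 tooth spots lie between 2477 and 2853, and the 9 skin spots used lie between 198 and 234.

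The other Hedgehog ligands were dim on both arrays. Dhh, the ligand known from testis and peripheral nerve sheaths, stood at -2.08 in tooth and -3.22 in skin, and the difference was -1.14 ± 0.31. With another background correction (normexp) the Dhh difference was -0.21. Ihh, the ligand known from growing cartilage, stood at -3.46 in tooth and near background in skin, with a difference of -0.39 ± 0.48. Its bound, a difference of -0.27 or at least 1.21-fold higher in tooth, is smaller than that error. All 3 ligand probes had a higher scaled signal in tooth as reported, beside 52.4% of all genes, and Ihh entered the comparison through tooth alone. Normexp turned Ihh to 0.18. It was run with an added offset, which by construction draws dim values together, so it cannot settle the direction of Dhh or Ihh.

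Genes that lipidate, release and carry Hedgehog ligands were taken next. Of the 6 listed, 5 could be measured. All 5 had a higher scaled signal in tooth, beside 52.4% of all genes, and 3 were called, beside 15.5% of all genes: Scube1, Scube2 and Scube3, which encode secreted proteins that help release the lipid-modified ligand from cells. Scube3 stood at 4.38 in tooth and 1.65 in skin, and the difference was -2.74 ± 0.20, and a second usable probe gave -2.60. Scube1 stood at 2.19 and 0.24, a difference of -1.95 ± 0.21.

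The probes of Scube2 disagreed. The brighter one, which stands for the gene, gave -1.16 ± 0.20, and the other gave 0.76 ± 0.21. The mean of the Scube2 probes was -0.20, which ends the call. Hhat, the acyltransferase that adds palmitate to the ligand, was within 2-fold, with a difference of -0.95 ± 0.21. The other Hhat probe above background gave -0.45 ± 0.21, and the mean of the Hhat probes above background was -0.70. The mean over all its probes gave 0.01, since it includes a probe near background in both tissues, at 1.43 ± 1.71. Disp1, the transporter that lets the ligand leave the cell, was within 2-fold, with a difference of -0.67 ± 0.21. Disp2, a relative of Disp1, stayed near background in both tissues.

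Ptch1, the receptor and a common target of the pathway, was within 2-fold on both of its probes. The brighter Ptch1 probe had a processed signal of 1769 in tooth and 1267 in skin, and the other had 1287 and 692. Scaled, the brighter probe stood at 2.05 and 2.20, a difference of 0.15 ± 0.20. The other Ptch1 probe stood at 1.59 and 1.33, a difference of -0.26 ± 0.20. The probes start 2581 bases apart in the genome and gave opposite signs, with a gap of 0.41 between their differences. No direction was therefore given for Ptch1.

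Hhip, a membrane protein that binds ligand and keeps it from the receptor and is itself a common target, was higher in tooth on both of its probes. The brighter Hhip probe had a processed signal of 1787 in tooth and 553 in skin. Scaled, it stood at 2.06 and 1.002, a difference of -1.06 ± 0.20, which is 2.09-fold higher in tooth and just past the 2-fold line. The other Hhip probe had a signal of 102 in tooth and 17.9 in skin, where it was too close to background to count as measured, which gave at least 3.16-fold higher in tooth. The Hhip probes start 3551 bases apart, and 14.5% of the 17409 genes had a difference as low as that of the brighter one or lower.

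Boc, Cdon and Gas1, the co-receptors that help Patched bind ligand, lay on the skin side. All 6 of their probes had a higher scaled signal in skin, by 0.60 to 2.18, and 5 of the 6 were at least 2-fold apart. Of these probes, 3 belong to Gas1. Counted by gene, 2 of the 3 were called as higher in skin, beside 14.2% of all genes. A higher scaled signal in skin, of whatever size, was found for 8278 of the 17409 genes. Boc stood at -0.76 in tooth and 0.72 in skin, and the difference was 1.48 ± 0.21. Gas1 stood at 0.47 and 1.91, a difference of 1.44 ± 0.20, and its other probes gave 2.18 and 2.16. Cdon stood at 1.30 and 1.90, a difference of 0.60 ± 0.20, and its dimmer probe gave 1.13. Scaling to the spike-in RNAs, which shifts the median of all genes by -0.62, left differences of 0.86 for Boc and 0.82 for Gas1 and turned Cdon to -0.03, so none of the 3 was then called. Lrp2, a large endocytic receptor that can bind Shh, stayed near background in both tissues.

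Smo, the membrane protein that carries the signal into the cell, was within 2-fold on both probes. The brighter Smo probe had a processed signal of 14418 in tooth and 6566 in skin, and the other had 1972 and 1268. Scaled, the brighter probe stood at 5.07 and 4.57, a difference of -0.50 ± 0.20. The other Smo probe stood at 2.20 on both arrays, a difference of -0.01 ± 0.20. The Smo probes start 306 bases apart, and the gap between their differences was 0.50. Under spike-in scaling the Smo difference was -1.13, which is called as higher in tooth.

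Evc, a ciliary membrane protein that works with Smoothened, was the called gene among the partners of Smo, with a difference of -1.08 ± 0.20. The other Evc probe above background gave -0.12 ± 0.33, and the mean of all Evc probes gave -0.57, which ends the call. Evc2, its binding partner, had a difference of -0.97 ± 0.20. Grk2, a kinase that phosphorylates Smoothened, had a difference of 0.49 ± 0.20 and turned to -0.13 under spike-in scaling. Gpr161, a ciliary receptor that holds the pathway down, had a difference of -0.11 ± 0.38.

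Sufu, the protein that binds and restrains the Gli factors, was near background on both arrays. The brighter Sufu probe had a processed signal of 38.8 in tooth and 36.6 in skin. Scaled, it stood at -3.46 and -2.91, a difference of 0.55 ± 0.32. The other Sufu probe had signals of 28.2 and 22.8 and fell short of the background call in skin, so no fold was taken from it. Under spike-in scaling the Sufu difference was -0.07. No direction was given for Sufu, and its low signal says nothing of how much Sufu RNA is present, since a probe's brightness also depends on its sequence.

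Other cytoplasmic regulators of the Gli proteins were mixed. Of the 9 measured apart from Sufu, 2 were called as higher in tooth, beside 15.5% of all genes, and 1 as higher in skin, beside 14.2%. Their median difference was 0.05. Btrc, the ubiquitin ligase subunit through which Gli proteins are trimmed, had a difference of -1.46 ± 0.22 on one probe and -0.66 ± 0.32 on the other. Kif7, a kinesin that regulates Gli proteins at the tip of the cilium, had a difference of -1.28 ± 0.21 on its brighter probe. The dimmer Kif7 probe, which was near background in skin, gave at least 1.24-fold higher in tooth, and the mean of the Kif7 probes gave -0.93, which ends the call. The Btrc difference was -0.99 under normexp.

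Csnk1a1, a kinase that phosphorylates Gli proteins, had a difference of 1.05 ± 0.20 on one probe and 0.49 ± 0.20 on the other, and differences of 0.43 under spike-in scaling, 0.77 for the mean of its probes and 0.97 under normexp, none of which is called. Stk36, a relative of the fly kinase Fused, had probes that disagreed. The brighter Stk36 probe gave -0.75 ± 0.21 and the other, near background in tooth, gave 1.48 ± 0.35.

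Genes of the primary cilium, where vertebrate Hedgehog signalling takes place, were counted in the same way. Of the 7 listed, 6 had a higher scaled signal in tooth, beside 52.4% of all genes. Of the 7, 2 were called as higher in tooth, beside 15.5% of all genes, and 0 as higher in skin, and their median difference was -0.61. Tulp3, which brings receptors into the cilium, had a difference of -1.18 ± 0.20. Wdr35, a part of the machinery for transport inside cilia, had a difference of -1.04 ± 0.21, which was -0.94 under normexp and then not called. The differences of the other 5 ran from -0.89 (Ift80) to 0.24 (Arl13b). These genes serve cilia in general, and the list is not particular to the Hedgehog pathway.

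The Gli transcription factors, which carry the signal to the genome, did not move together. Gli3, the main source of the repressor form, was the called one. Its single probe had a processed signal of 3168 in tooth and 691 in skin. Scaled, Gli3 stood at 2.89 and 1.32, a difference of -1.57 ± 0.20, which is 2.96-fold higher in tooth, and 9.32% of the 17409 genes had a difference as low or lower.

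Gli1, an activator that is itself a target of the pathway and often used as its readout, was within 2-fold. The bright Gli1 probe had a processed signal of 11400 in tooth and 6504 in skin. Scaled, it stood at 4.74 and 4.56, a difference of -0.18 ± 0.20, smaller than its spot error. The other Gli1 probe lies 8054 bases away, had signals of 40.1 and 32.8, and gave 0.34 ± 0.35. Both Gli1 probes thus gave differences no larger than their spot error, with opposite signs.

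Gli2, the main activator in many tissues, had the largest difference toward skin among the members and was still within 2-fold. Its single probe had a processed signal of 269.5 in tooth and 306.8 in skin. Scaled, Gli2 stood at -0.67 and 0.15, a difference of 0.82 ± 0.21, which is 1.76-fold higher in skin. Under spike-in scaling the Gli2 difference was 0.20, smaller than its spot error. As reported, Gli3 and Gli2 thus lay on opposite sides, with Gli1 between them.

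**Figure D3:**
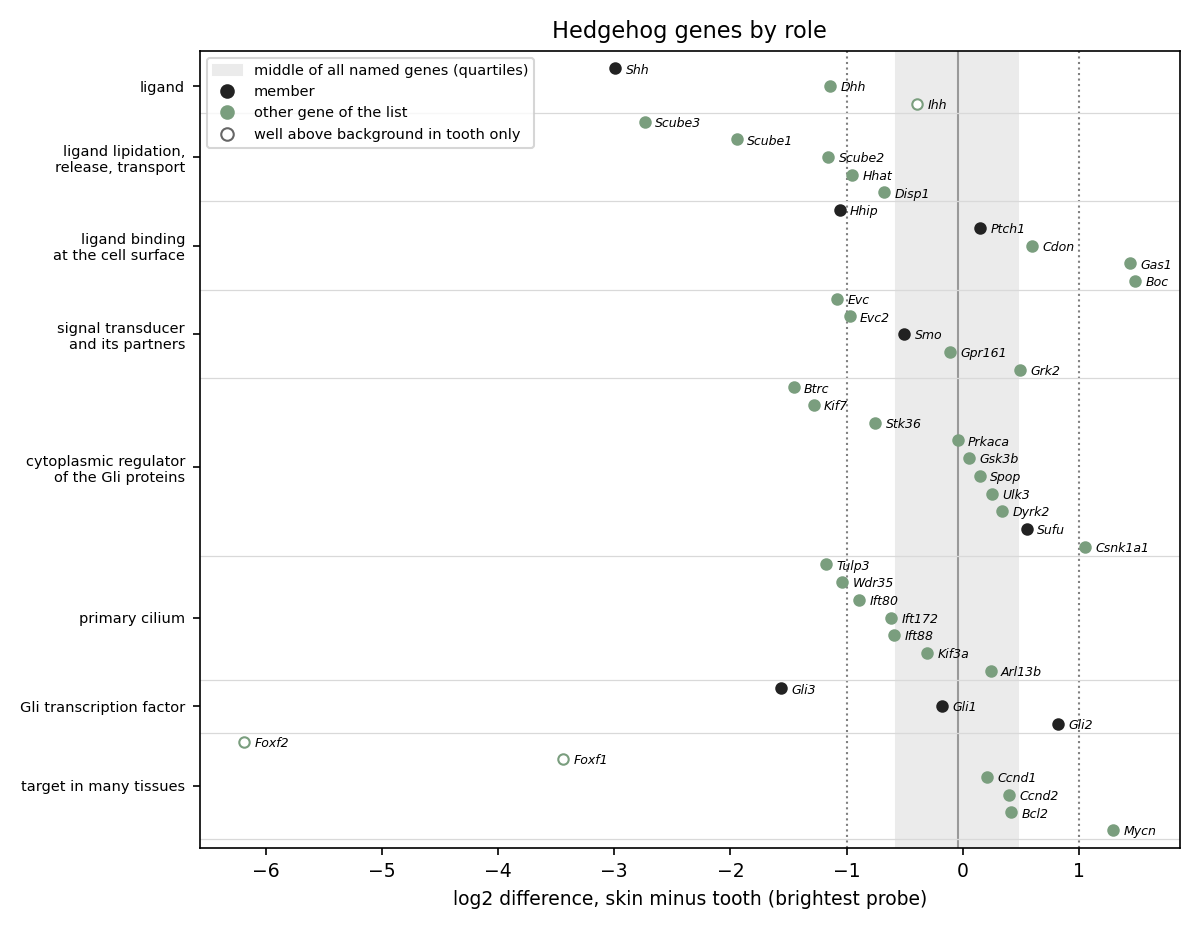
Difference between skin and tooth, on the scaled log2 scale, for the 44 Hedgehog genes that entered the comparison, grouped by role, with members in black, other genes in green and open points, drawn at the measured dim value, where the gene was well above background in tooth only. Dotted lines mark 2-fold and the grey band holds the middle 50% of all 17409 genes (-0.58 to 0.47), and the reader should see Shh and the Scube genes on the tooth side and Boc and Gas1 on the skin side.

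The target genes of the pathway were spread. Of the members that are common targets, Hhip was called as higher in tooth, while Gli1 and Ptch1 were within 2-fold. Of the 6 other genes listed as targets in many tissues, 2 were called as higher in tooth, 1 as higher in skin and 3 were within 2-fold. The 2 higher in tooth are Foxf1 and Foxf2, which passed the filter through tooth alone. Those measured in both tissues were Mycn, called as higher in skin, and Ccnd1, Ccnd2 and Bcl2, all within 2-fold. The shares over all genes were 15.5% called as higher in tooth and 14.2% as higher in skin. With both tissues well above background they were 12.3% and 11.4%. Foxf2, a forkhead factor of mesenchyme, stood at 0.43 in tooth and near background in skin, at least 17.8-fold higher in tooth on the values as reported. Under normexp the Foxf2 difference was smaller, at -2.89. Foxf1, its close relative, stood at -2.34 in tooth and near background in skin, at least 2.63-fold higher in tooth on the values as reported. Under normexp the Foxf1 difference was -0.55, which ends the call. Normexp was run with an added offset, which by construction draws dim values together, so both bounds hold for the reported processing only.

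Mycn, which encodes a growth-promoting factor, had a scaled value of 0.93 in tooth and of 2.22 in skin. The Mycn difference was 1.29 ± 0.20, and 0.67 under spike-in scaling. The differences were 0.21 for the cyclin Ccnd1, 0.40 for the cyclin Ccnd2 and 0.42 for the survival gene Bcl2, and all 3 turned below 0 under spike-in scaling. Sox21, which the study places under Shh in the dental epithelium, stood at 1.21 in tooth and 1.68 in skin, with a difference of 0.47 ± 0.20. The second Sox21 probe gave 0.19, and spike-in scaling gave -0.16, so Sox21 was within 2-fold and had no settled direction.

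Over the 38 genes of the wider pathway list that are not members, 36 entered the comparison. Of these, 11 were called as higher in tooth, 4 as higher in skin and 21 were within 2-fold, with a median difference of -0.49. The 11 include Foxf1 and Foxf2, which passed the filter through tooth alone, and with both tissues well above background 9 of 33 were called as higher in tooth and the median was -0.30. The median was -0.18 for the mean of all probes, -0.29 for the mean of the probes well above background and -0.27 under normexp. The 11 and 4 stand beside 15.5% and 14.2% over all genes. With both tissues well above background, the shares over all genes were 12.3% higher in tooth and 11.4% higher in skin. Under normexp they were 9.60% and 10.0%, and with the median shift 20.1% and 11.6%. The split was 8 and 3 under normexp and under both probe means, and 15 and 3 with the median shift. It moved to 19 higher in tooth and 0 higher in skin under spike-in scaling, where the counts over all genes were 5639 and 1573 in place of 2691 and 2466. Among members, the same scaling gave 4 higher in tooth, with Smo added, and 0 higher in skin.

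The sign and the 2-fold call were followed for each member under 11 other ways of processing the same arrays. Shh ran from -3.62 to -2.74, Gli3 from -2.20 to -1.53 and Hhip from -1.69 to -1.02, and each of these 3 was called as higher in tooth in all 11. Gli2 ran from 0.19 to 0.84 and was on the skin side in all 11, without a call. With no scaling (0.19) and spike-in scaling (0.20), however, the Gli2 difference was smaller than its spot error of 0.21. Smo ran from -1.13 to -0.25 and was on the tooth side in all 11. Gli1 ran from -0.81 to 0.08, Ptch1 from -0.48 to 0.18 and Sufu from -0.08 to 0.57, and each of these crossed zero. Gli1 was on the tooth side in 9 of the 11 and crossed zero only with the probe means, which bring in its dim probe. Not all of the 11 could change a member. The other filters on dim probes and the dim-value bound left every member as reported, since its standing probe was well above background on both arrays. For Shh, Gli2 and Gli3, which have a single probe each, the probe means could not change the value either.

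**Figure D4:**
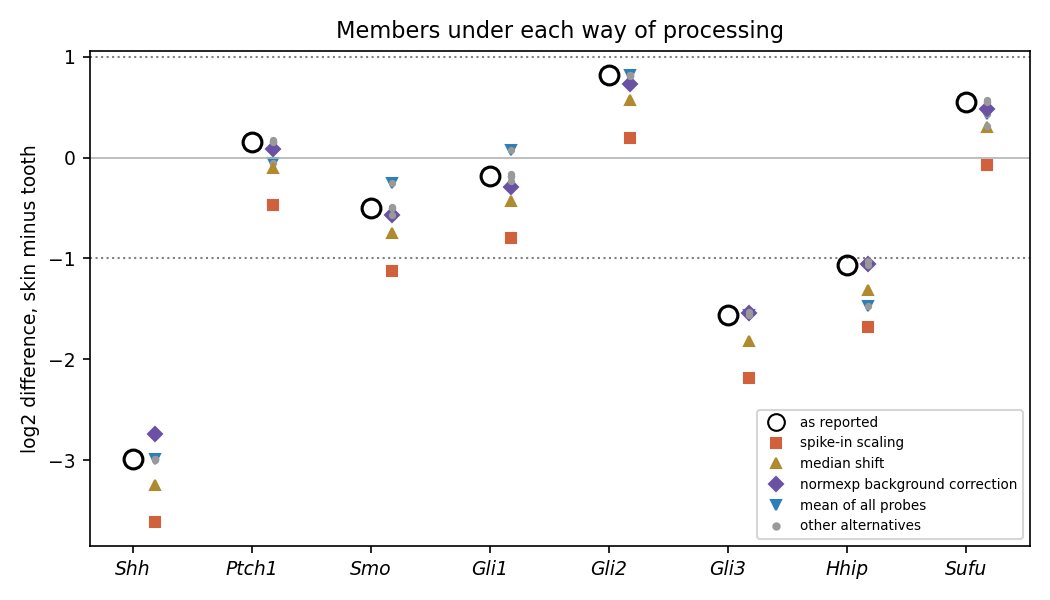
Difference between skin and tooth, on the log2 scale, for each member as reported (open circles) and under 11 other ways of processing (small symbols), with dotted lines at 2-fold. Shh, Gli3 and Hhip lie past the tooth line throughout, Gli2 lies between 0.19 and 0.84, and the symbols of Ptch1, Gli1 and Sufu lie on both sides of zero.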

How the data were processed

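Total RNA was purified on columns, labelled with Cy3 from a low input and hybridised to 1 array per tissue. Samples were grouped by their tissue label, with both at P0. The study's methods name GeneSpring and a percentile shift. Per the file headers, the deposited intensity values came from Agilent Feature Extraction (version 10.7.3.1), which had subtracted background, corrected for trends across the array and put surrogates in place of very dim values. The deposited flags of that software gave outlier, saturation and background calls. The authors also deposited a table of 1 ratio per spot, which was the processed signal divided by 430.7 (tooth) or 274.5 (skin). Its values were linear and not centred on genes, with medians of 0.0810 and 0.0989, and it was used as an alternative.

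Each array held 62976 spots, of which 59305 were not controls. Outlier spots (137 on tooth, 146 on skin) were left out, and no spot was saturated. Spots of a probe were averaged on the log2 scale and the array's 75th percentile was subtracted. A probe was well above background when the software called more than 50% of its spots so. This held for 56.7% of probes in tooth and 52.5% in skin. The brightest probe over both arrays stood for a gene. Names came from RefSeq accessions (GRCm38.p6, 82.1% of named probes matched), used for names only, and otherwise from the array. Where a probe was not well above background on 1 array, the bright value was set against the higher of its own dim value and the lowest signal called well above background there (-4.52 in tooth, -3.73 in skin).

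With 1 array per tissue, no test was run. The number of arrays limits the precision, and spot scatter alone gives a difference an SD of 0.11. The text names every member probe, the called genes of the wider list, its ligand and surface genes, genes whose probes disagree, and Sox21. Other genes of the list and marker genes are given beside them as values. One gene of the wider list is not reported here and was left out of its counts. Members and lists were chosen with earlier results of these data known. Alternatives were a median shift, quantile normalization, spike-in scaling (8 transcripts), no scaling, normexp with an offset of 50, the deposited ratio table, other filters on dim probes, the mean over a gene's probes and dim values at their bound. The steps were tested on simulated data. Python 3.11.15, numpy 2.4.6, pandas 2.3.3, R 4.3.3 and limma 3.58.1 were used.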

Additional observations from a re-analysis of the deposited data

How the results depend on the processing

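No listed gene called in 1 direction as reported was called in the other under any of the 11 alternatives run. Calls were lost and gained, however. Of the genes called as higher in skin, Boc, Gas1 and Mycn stayed called in 9 of the 11 and Csnk1a1 in 5. Of those higher in tooth, Scube2, Evc and Kif7 stayed called in 9, Dhh, Btrc and Wdr35 in 10, and Foxf1 in 9 of 10. The others higher in tooth kept their call throughout. Some genes within 2-fold gained a call, such as Smo in 2, and the signs of many genes within 2-fold turned under some alternatives. Among members these were Ptch1, Gli1 and Sufu. In the wider list they were Ihh, Hhat, Cdon, Grk2, Gpr161, Stk36, Spop, Gsk3b, Dyrk2, Ulk3, Arl13b, Ccnd1, Ccnd2 and Bcl2. The sign of Sox21 turned as well. The number of members called as higher in tooth was 3 under 9 of the 11 and 4 under spike-in scaling and no scaling, and none was called as higher in skin under any. The other filters and the dim-value bound could not change this number, for the reason given above. The median over the members, -0.34 as reported, was -0.59 with the median shift, -0.97 with no scaling, -0.96 with spike-in scaling and -0.16 with the mean over all probes or over the probes well above background. In the wider list, genes higher in tooth numbered 19 and genes higher in skin 0 with no scaling and with spike-in scaling, 15 and 3 with the median shift, and 8 and 3 with normexp and with both probe means, in place of 11 and 4. The median of that list, -0.49 as reported, ran from -1.12 with no scaling to -0.18 with the mean of all probes. Over all genes, the counts of 2-fold calls higher in tooth and in skin were 5688 and 1570 with no scaling, 3500 and 2020 with the median shift, 1672 and 1743 with normexp and 2885 and 3676 with no filter on dim probes, in place of 2691 and 2466. The median of all genes shifted by -0.62 with spike-in scaling, by -0.63 with no scaling, by -0.25 with the median shift and by 0.22 with no filter. The 8 spike-in transcripts differed by -0.03 to 0.54 before scaling, with a median of -0.01, and which scaling is nearer to RNA per cell was not tested. Signals near background, such as those of Sufu, Dhh and Ihh, limit what can be read for those genes. Leaving out a replicate was not possible with 1 array per tissue. No paired analysis was possible because each tissue has 1 array and the labels carry no replicate numbers.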
